A study of Mus musculus with 5 samples.

Results

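The DEAD and DEAH box RNA helicase genes were followed in the mammary glands of 2 control mice and 3 cyclin D1 mice. Members were the genes whose symbol begins with Ddx or Dhx followed by a digit and whose probe set is annotated to that symbol alone, leaving out Ddx58 and Dhx58. Where a gene had several such probe sets, the one of highest average signal stood for it. The rule gave 49 genes, 34 named Ddx and 15 named Dhx, of 19938 genes measured. All mice were FvB/N females of 8 weeks. The controls carried the MMTV-rtTA transgene alone. The cyclin D1 mice carried rtTA together with a CCND1 transgene. rtTA is a transcriptional activator that needs doxycycline to work, and the MMTV promoter drives it mainly in mammary epithelium. The treatment text gives 7 days of doxycycline for mice with a "KE" mutant of CCND1, and does not say whether the controls were given the drug. Each array held RNA of the whole gland of 1 mouse, and the design text calls the mice separate animals.

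DEAD and DEAH box proteins use ATP to pull apart short RNA duplexes or to strip proteins from RNA. They are named after the amino acid letters of the motif that binds ATP and magnesium. DEAD box members act at almost every step of an RNA's life, from transcription and splicing to export, translation and decay. DEAH box members are best known for driving the rearrangements of the spliceosome and for resolving structured RNA. In the mammary gland such genes belong to the general machinery of growing and secreting cells, apart from a few members used mainly in germ cells.

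The promoters of 4 members are shown. Ddx3x had the largest difference of the family in the values as deposited. Ddx10 and Ddx1 had large differences and a promoter that holds the letters marked below. Ddx4 is a germ-cell member with signal near the array's floor. Each run is the 250 bases before the RefSeq gene start (GRCm38.p6), 5′ to 3′ on the gene's strand, with capitals marking the letters CCGGAAG, which resemble the core of ETS-factor sites.
Ddx3x (chrX:13280772-13281021, plus strand): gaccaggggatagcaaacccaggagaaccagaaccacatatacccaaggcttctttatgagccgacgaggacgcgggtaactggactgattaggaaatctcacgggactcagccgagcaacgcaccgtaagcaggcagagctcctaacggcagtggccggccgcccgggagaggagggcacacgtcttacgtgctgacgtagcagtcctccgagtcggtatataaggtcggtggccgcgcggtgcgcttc
Ddx10 (chr9:53248113-53248362, minus strand): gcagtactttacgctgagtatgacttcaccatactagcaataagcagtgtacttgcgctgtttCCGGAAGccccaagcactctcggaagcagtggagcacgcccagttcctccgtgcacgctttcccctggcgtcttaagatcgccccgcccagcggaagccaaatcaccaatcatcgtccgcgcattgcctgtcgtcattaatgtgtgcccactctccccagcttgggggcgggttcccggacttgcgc
Ddx1 (chr12:13249175-13249424, minus strand): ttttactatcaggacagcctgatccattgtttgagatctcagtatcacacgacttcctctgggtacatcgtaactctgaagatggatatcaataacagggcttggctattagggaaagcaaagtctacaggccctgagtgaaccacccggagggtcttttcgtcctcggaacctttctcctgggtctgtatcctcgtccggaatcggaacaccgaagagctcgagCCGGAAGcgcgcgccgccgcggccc
Ddx4 (chr13:112652311-112652560, minus strand): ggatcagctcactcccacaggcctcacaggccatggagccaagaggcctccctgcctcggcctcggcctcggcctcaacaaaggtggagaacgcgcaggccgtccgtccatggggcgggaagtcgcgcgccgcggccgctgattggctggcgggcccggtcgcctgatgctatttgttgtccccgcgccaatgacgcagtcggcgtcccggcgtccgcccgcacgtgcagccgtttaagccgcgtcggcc
The match begins 187 bases before the start in Ddx10 and 25 bases before it in Ddx1, and there is none in the windows shown for Ddx3x and Ddx4. The letters were searched on both strands in windows of 300 bases, 250 before to 50 after the start. RefSeq windows were found for 44 of the 49 members, and 19 of them, 43.2%, held CCGGAAG in at least 1 window, against 13.6% of 15614 genes. The 9 other motifs searched were CACGTG (in 15.9% of members and 9.5% of genes), TTTCCCGC (2.27% and 1.76%), TTTGGCGC (4.55% and 0.833%), GCGCATGC (11.4% and 4.27%), AAGATGGC (2.27% and 3.77%), TATAAA (11.4% and 13.6%), a CG-rich palindrome known from promoters of housekeeping genes (0% and 0.833%), GGGCGG (70.5% and 52.9%) and CCAAT (52.3% and 41.7%). No CCGGAAG match in a member overlapped a match of another motif. The 19 members that hold CCGGAAG and the 25 that do not had medians of 0.35 and 0.33 in the log2 difference between the groups described below, and of 0.28 and 0.19 after the renormalization described there. Of the former 5 were called higher, and of the latter 2 (5.38% of all genes). All 3 cyclin D1 values lay above both controls in 12 of the former and 14 of the latter (22.4% of all genes). They lay below both in 2 of each set (22.6%). Differences between these sets were not tested.

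Signal was spread over a narrower range on the control arrays than on the cyclin D1 arrays, and this bears on every value below. The SD across all genes was 0.735 and 0.926 in controls 1 and 2 and 1.20 to 1.38 in the cyclin D1 mice. Correlations across genes were 0.955 to 0.962 among cyclin D1 arrays and 0.779 between the controls. Control 1 correlated with the cyclin D1 arrays at 0.701 to 0.743. Control 2 correlated with them at 0.841 to 0.884, more closely than with control 1. Values are log2 expression, and differences are cyclin D1 minus control. Beside them stand differences after a further quantile normalization over genes, called renormalized here, which gives every array the same range. Ccnd1 itself read 4.04 and 3.49 in the controls against 4.63, 4.92 and 4.0 in cyclin D1 replicates 1, 2 and 3, with control 1 above replicate 3 (log2 difference 0.75, SE 0.32, limma adjusted p = 0.218, and -0.14 renormalized). Whether its probe set reads the transgene was not analysed here.

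Most helicase genes stood higher in the cyclin D1 glands, and the differences ranged widely among them, from -0.65 in Ddx51 to 3.69 in Ddx3x. The median over the 49 members was 0.35 on the log2 scale, against -0.053 over all genes, and 0.26 against -0.021 after renormalization. On both scales 38 of the 49 had positive differences, but 8 members changed sign between the scales. In limma (adjusted p under 0.05 over all genes) 7 members were called higher, 14.3% of them, where 5.38% of all genes were called higher. None was called lower (0.687% of all genes), with 3 members lower at an unadjusted p under 0.05. After renormalization 2 members, Ddx3x and Ddx10, were called higher (0.256% of all genes) and 0 lower (0.105%). In whole glands, fewer cells of a type and less RNA per cell cannot be told apart. The contrast is the one the family was chosen with, and the counts are given as a description.

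The calls rested on individual mice. No member was called without control 1, without cyclin D1 replicate 1 or without cyclin D1 replicate 2. Without control 1 only control 2 remained in its group, and the median difference over members was 0.40. Without cyclin D1 replicate 1, 21 of 49 members and 3568 of 19938 genes had an unadjusted limma p under 0.05. Without cyclin D1 replicate 2 these were 19 of 49 members and 3491 of 19938 genes. Both directions are counted here. Without cyclin D1 replicate 3 the called members were Ddx1, Ddx10 and Ddx3x (1.5% of all genes were called higher). Without control 2 there were 12 higher (6.85% of all genes) and 3 lower (5.33% of all genes), the latter being Ddx4, Ddx51 and Ddx56. Other fits with all mice called 4 members with an intensity trend (3.12% of all genes), 4 with array weights (1.32%), 9 after the filter on dim genes (14.6% of the genes kept) and 7 with the replicate number as a block (5.7%). Renormalized without control 1, 7 members were called higher (2.78% of all genes) and Ddx54 lower (4.48%). The 7 members called with all mice had positive differences under each of the 15 alternative settings. In these 7 every cyclin D1 value lay above both controls. Leaving out or weighting arrays therefore could not turn the sign, and the count lends no support.

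Separation of the groups gave a similar picture. In 29 members, 59.2%, the 3 cyclin D1 values lay above both controls (22.4% of all genes), and in 4 members, 8.16%, they lay below both (22.6%, and 25% of the genes below the top signal decile, where these 4 belong). After renormalization 22 members lay above (20.1% of all genes) and 4 below (19.5%). The difference grew with the signal: across members the Pearson r between mean level and difference was 0.88, and across all 19938 genes it was 0.743. After renormalization the r across members was 0.495. These points share the same 5 arrays, and the narrow control range moves with the level in the same way. Of the 13 members in the top decile of mean signal, all lay above both controls (82.2% of genes in that decile), 6 were called higher (36% of genes in that decile) and the median difference was 2.13 against 1.59 (0.98 against 0.36 after renormalization). The decile was set on the mean of all 5 arrays, so high cyclin D1 values helped to place genes in it: the control mean was below the decile's lowest mean of 4.438 in 9 of the 13 members and in 58.2% of the decile's genes. These counts are therefore a description and lend no support. Of the 36 members below that decile, 16 lay above both controls (15.8% of the other genes) and 1 was called higher (1.98%), with a median of 0.22 against -0.095. Within their own decile 38 of the 49 members exceeded the median difference of all genes.

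**Figure D1:**
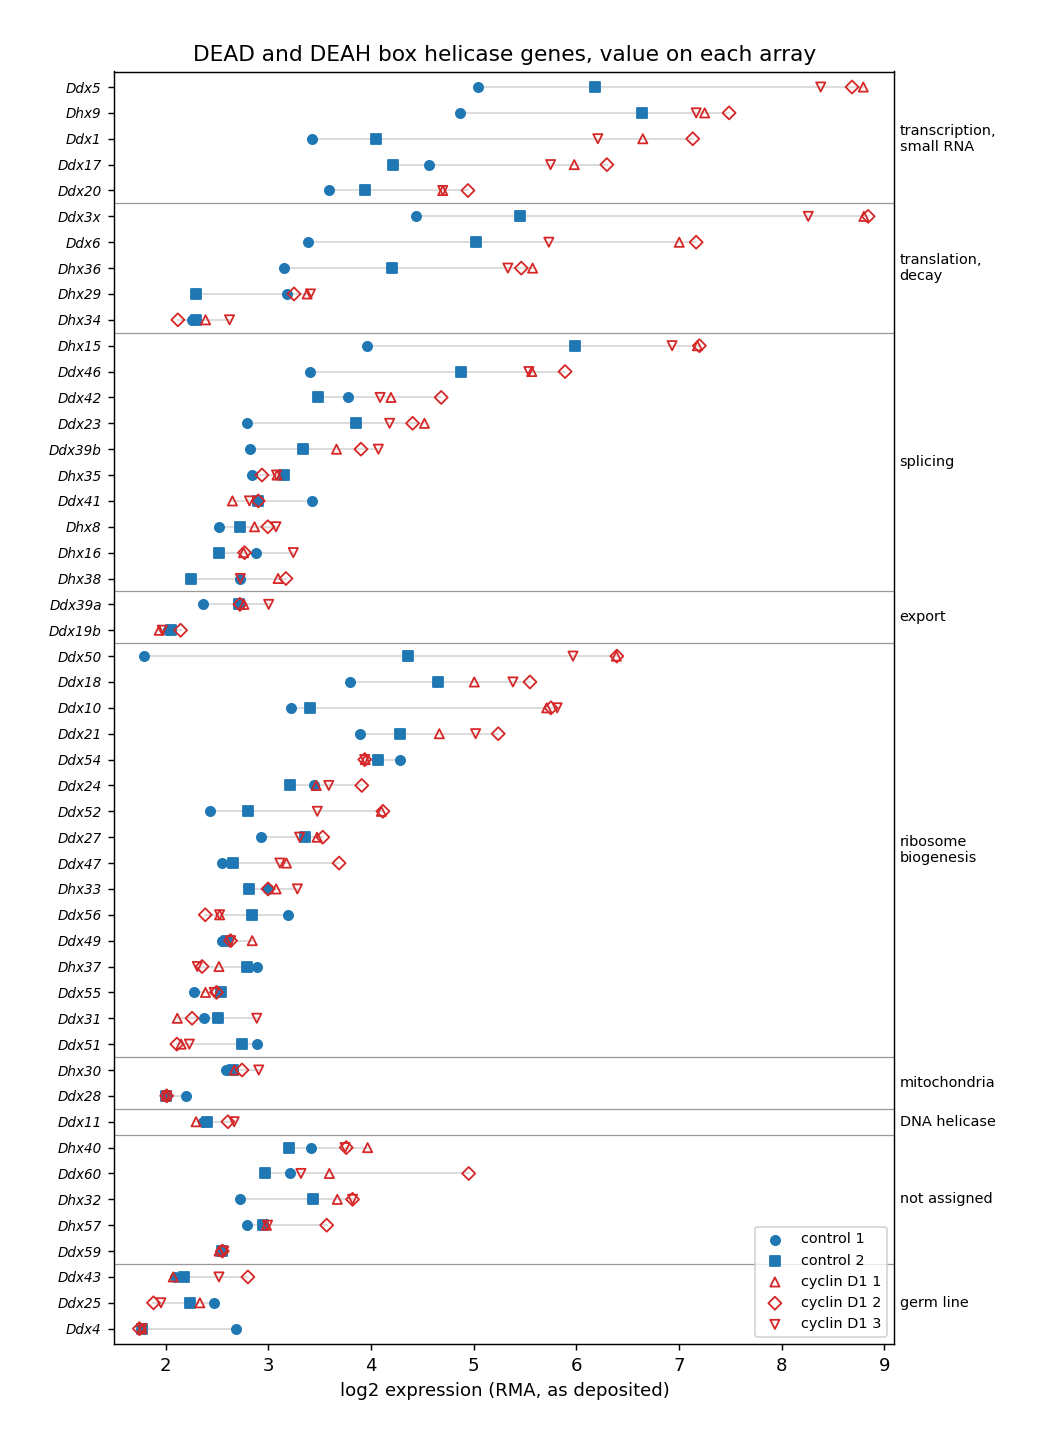
Log2 expression as deposited (x axis) of the 49 helicase genes (rows, grouped by role) on each of the 5 arrays, with filled blue symbols for the 2 controls and open red symbols for the 3 cyclin D1 mice. The grey line spans the lowest to the highest array. Ddx3x, Ddx5, Ddx1 and Ddx10 show a clear gap between the groups, the cyclin D1 values of Ddx51, Ddx56, Dhx37 and Ddx54 lie below both controls, and Ddx50 has a low value of 1.79 in control 1 alone.

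**Figure D2:**
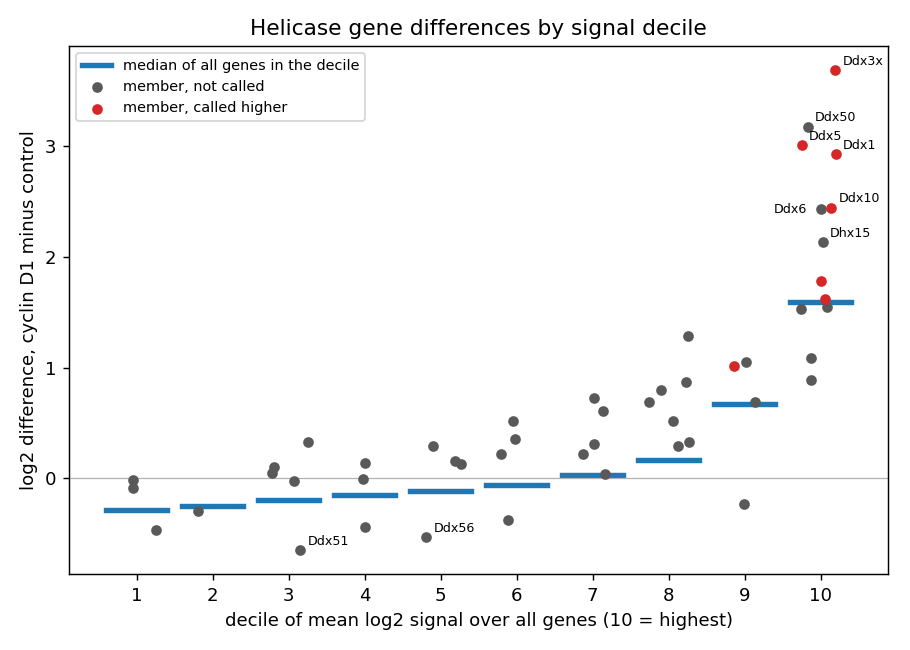
Log2 difference, cyclin D1 minus control (y axis), of each helicase gene against the decile of its mean log2 signal among all genes (x axis, points spread sideways for legibility), with members called higher by limma in red and the others in grey. Blue bars give the median difference of all genes in a decile, which runs from -0.29 in the lowest to 1.59 in the highest. Most members lie above the bar of their decile, and Ddx3x lies farthest above it.

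Among helicases of transcription and small RNA processing, all 5 members lay above both controls and 4 were called higher, with a median log2 difference of 1.62. Of these 5 members 4 are in the top signal decile, where 82.2% of genes lay above both controls and 36% were called. After renormalization 3 lay above both controls, 0 were called and the median was 0.22. Ddx5, a coregulator of transcription that also binds the Drosha complex, read 5.05 and 6.18 in controls 1 and 2, against 8.80, 8.69 and 8.38 in cyclin D1 replicates 1, 2 and 3. The groups were separated by over 2 log2 units, and the difference was 3.01 (SE 0.36), or 1.28 (SE 0.15) after renormalization, when it was not called. The other probe set of Ddx5 gave 4.45 and 4.74 against 8.37, 8.38 and 7.78. Both probe sets thus had every cyclin D1 mouse above every control.

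Ddx17, the close relative of Ddx5 with shared roles, read 4.57 and 4.21 in the controls against 5.98, 6.30 and 5.75 in the cyclin D1 mice. It was called higher with a difference of 1.62 (SE 0.22). After renormalization the difference was 0.12 (SE 0.36) and the groups overlapped. Ddx17 was the only 1 of the 13 top-decile members in which control 1 exceeded control 2.

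Ddx1, part of the complex that ligates spliced tRNA fragments, read 3.43 and 4.05 in the controls against 6.65, 7.14 and 6.21 in the cyclin D1 mice. The difference of 2.93 (SE 0.33) was called, and that of 1.88 (SE 0.27) after renormalization was not. Ddx20 (Gemin3), a member of the SMN complex that assembles small nuclear ribonucleoproteins and outside the naming rule, was called with a difference of 1.02 (SE 0.17), which became 0.22 (SE 0.15). Dhx9, or RNA helicase A, a DEAH box helicase of transcription, stood at 4.87 and 6.64 against 7.25, 7.49 and 7.17. Its controls were 1.77 apart, its difference of 1.55 (SE 0.51) was not called, and the sign turned to -0.19 (SE 0.28) after renormalization.

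Helicases of mRNA translation, storage and decay held the member with the largest difference on the deposited scale. Of 5 members 2 were called higher, 4 lay above both controls, and the median difference was 1.78, or 0.98 after renormalization. In the top signal decile, where 36% of genes were called and 82.2% lay above both controls, were 3 of the 5. Ddx3x, an X-linked helicase of translation initiation, read 4.44 and 5.45 in controls 1 and 2, against 8.80, 8.84 and 8.26 in cyclin D1 replicates 1, 2 and 3. All 3 cyclin D1 mice exceeded the higher control by more than 2 log2 units. The difference of 3.69 (SE 0.36) corresponds to 12.9-fold, and it was 2.06 (SE 0.20) after renormalization, called on both scales. The other probe set of Ddx3x read 3.24 and 3.38 in the controls and 6.94, 6.06 and 6.35 in the cyclin D1 mice. It too separated the groups without overlap.

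Ddx6, the P-body helicase that represses and helps decap mRNA, stood at 3.38 and 5.02 against 7.0, 7.17 and 5.73. The spread within both groups was large, and the difference of 2.43 (SE 0.64) was not called, with 1.33 (SE 0.64) after renormalization. Dhx36, which resolves G-quadruplexes, stood at 3.15 and 4.20 against 5.57, 5.46 and 5.33. Its difference of 1.78 (SE 0.32) was called, and the value of 0.98 (SE 0.42) after renormalization was not. Dhx29, which helps ribosomes scan structured leaders, read 3.18 and 2.30 against 3.38, 3.25 and 3.41, a difference of 0.61 (SE 0.28) that lies mostly in control 2. Dhx34, a factor of nonsense-mediated decay, differed by 0.098 with overlapping groups, and both controls were at or below the array floor described further on.

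The spliceosomal helicases were higher in most cases, with no member called. Of 10 members 6 lay above both controls (22.4% of all genes) and 9 had positive differences, with a median of 0.60 (0.49 after renormalization, 8 positive). In the top signal decile, where 82.2% of genes lay above both controls, were 2 of the 10. Dhx15, which takes the spent spliceosome apart, read 3.96 and 5.99 in the controls against 7.18, 7.20 and 6.93 in the cyclin D1 mice. The controls differed from each other by 2.03, nearly as much as the groups did (2.13, SE 0.58, and 0.68, SE 0.48, after renormalization). Ddx46, which acts when U2 joins the branch site, showed the same layout at 3.40 and 4.88 against 5.57, 5.89 and 5.54, with a difference of 1.53 (SE 0.44). Ddx23, the helicase of the U5 particle, stood at 2.80 and 3.85 against 4.52, 4.41 and 4.18, a difference of 1.05 (SE 0.33). In all 3 genes control 2 lay between control 1 and the cyclin D1 mice.

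Ddx42, a U2-associated helicase, ran the other way within the controls, with 3.78 and 3.49 against 4.19, 4.68 and 4.09. Its difference of 0.69 (SE 0.23) fell to -0.0072 (SE 0.29) after renormalization. Ddx41, linked to splicing and to nucleic acid sensing, was lowest in cyclin D1 replicate 1, with 3.42 and 2.90 in the controls and 2.65, 2.90 and 2.82 in the cyclin D1 mice. The difference was -0.37 (SE 0.20) and the groups met at control 2. The other 5 splicing members, Ddx39b, Dhx8, Dhx16, Dhx35 and Dhx38, had differences of 0.038 to 0.80, and 0.048 to 0.65 after renormalization.

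The ribosome biogenesis helicases included members that stood higher and members that stood lower. Of 16 members 8 lay above both controls (22.4% of all genes) and 4 below both (22.6%). The share below both was thus close to that of all genes. In the top signal decile, where 82.2% of genes lay above both controls, were 4 of the 16. The group had 1 member called higher (5.38% of all genes), and the median difference was 0.26 (0.17 after renormalization). Ddx10, a nucleolar helicase of ribosomal RNA processing, read 3.22 and 3.41 in the controls against 5.71, 5.75 and 5.81 in the cyclin D1 mice. Both groups were tight, with SDs of 0.13 (n = 2) and 0.051 (n = 3), and the gap between them was over 2 log2 units. The difference of 2.45 (SE 0.13), or 5.45-fold, was called, and so was that of 1.77 (SE 0.18) after renormalization. It was 2.54 against control 1 and 2.35 against control 2.

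Ddx50 and Ddx21 are related nucleolar helicases. Ddx50 read 1.79 and 4.36 in controls 1 and 2, against 6.39, 6.40 and 5.97 in the cyclin D1 mice. Control 1 lay below the array floor and 2.57 under control 2, so the difference of 3.18 (SE 0.74) is inexact and was not called, and against control 2 alone it was 1.89. After renormalization the difference was 2.36 (SE 0.91), the largest of the family but not called. The renormalized values were 1.63 and 4.89 in controls 1 and 2, against 5.58 to 5.68. Ddx21 stood at 3.89 and 4.28 against 4.67, 5.24 and 5.02. Its difference of 0.89 (SE 0.23) turned to -0.20 (SE 0.18) after renormalization. Ddx18, a nucleolar helicase, behaved in the same way, with 3.80 and 4.65 against 5.01, 5.55 and 5.38, a difference of 1.09 (SE 0.31) and one of -0.060 (SE 0.27) after renormalization. The other probe set of Ddx18 read 4.20 and 4.24 in the controls and 3.99, 4.93 and 4.39 in the cyclin D1 mice, so the groups overlapped there and the probe sets disagree.

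The members that stood lower were Ddx51, Ddx56 and Dhx37, all nucleolar factors of ribosome assembly, and Ddx54. Ddx51 read 2.89 and 2.74 in the controls and 2.15, 2.11 and 2.23 in the cyclin D1 mice. The groups did not overlap, and the difference was -0.65 (SE 0.13), or -0.54 (SE 0.14) after renormalization, uncalled on both scales but called lower with an intensity trend, as were 0.928% of all genes. Ddx56 read 3.19 and 2.84 against 2.53, 2.39 and 2.53, with a difference of -0.53 (SE 0.16) and one of -0.52 (SE 0.20) after renormalization. Dhx37 read 2.89 and 2.79 against 2.52, 2.35 and 2.31, with -0.44 (SE 0.14) and -0.35 (SE 0.16). In genes of their signal deciles the median difference was -0.19 for Ddx51, -0.11 for Ddx56 and -0.16 for Dhx37.

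Ddx54, named after its values were seen, read 4.28 and 4.07 in the controls and 3.94 in each cyclin D1 mouse. Its difference of -0.23 (SE 0.13) widened to -1.21 (SE 0.31) after renormalization. The other probe set of Ddx54 read 2.72 and 3.68 against 3.54, 3.55 and 3.61, with control 2 above all cyclin D1 mice, so the probe sets do not separate the groups alike. Ddx52, also named after its values were seen, read 2.43 and 2.80 against 4.10, 4.12 and 3.48, a difference of 1.28 (SE 0.26) that stayed at 1.20 (SE 0.23) after renormalization without a call. The other 7 ribosome biogenesis members, Ddx24, Ddx27, Ddx31, Ddx47, Ddx49, Ddx55 and Dhx33, lay between -0.024 and 0.72.

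**Figure D3:**
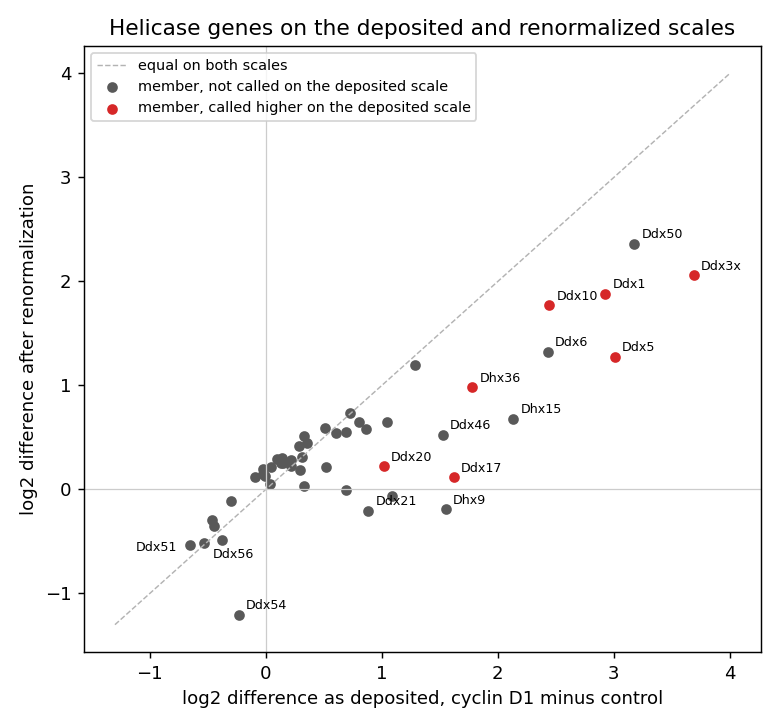
Log2 difference, cyclin D1 minus control, of the 49 helicase genes as deposited (x axis) and after renormalization (y axis), with the dashed line marking equal values and red points the 7 members called higher as deposited. Ddx50, Ddx3x, Ddx1 and Ddx10 keep differences over 1.7 on the y axis. For Ddx50 this value has an SE of 0.91, with renormalized controls of 1.63 and 4.89. Ddx17, Dhx9 and Ddx21 fall to 0.12, -0.19 and -0.20, and Ddx54 moves to -1.21.

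Members of the remaining roles differed little. The export helicases were Ddx39a, with 2.36 and 2.72 in the controls against 2.76, 2.72 and 3.0, and Ddx19b, which releases export factors at the nuclear pore and differed by -0.020 (0.19 after renormalization). The mitochondrial helicases Dhx30 and Ddx28, which act on mitochondrial ribosomes, differed by 0.15 and -0.092, the latter with the opposite sign of 0.12 after renormalization. Both Ddx19b and Ddx28 lay near the array floor described further on. Ddx11, a DNA helicase of sister chromatid cohesion, differed by 0.14 with overlapping groups.

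Among 5 members with no role assigned, 4 lay above both controls (22.4% of all genes) and none was called. Ddx60, an interferon-induced gene, read 3.21 and 2.97 in the controls and 3.59, 4.95 and 3.32 in the cyclin D1 mice. Replicate 2 alone was high, and the difference was 0.87 (SE 0.51). Dhx32 read 2.73 and 3.44 against 3.67, 3.82 and 3.82, a difference of 0.69 (SE 0.24). Dhx40 and Dhx57 differed by 0.52 (SE 0.15) and 0.31 (SE 0.23), and Ddx59 by -0.0058, with the opposite sign of 0.13 after renormalization.

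The germ-cell helicases Ddx4 (Vasa), Ddx25 and Ddx43 lay near the floor of the arrays. The mean of 1027 olfactory receptor genes on each array, 2.52 and 2.38 in the controls and 2.03, 1.97 and 2.24 in the cyclin D1 mice, was taken as a rough floor for genes that this tissue hardly uses. Ddx4 read 2.69 in control 1 and 1.77 in control 2, against 1.77, 1.74 and 1.77 in the cyclin D1 mice, so 4 of its 5 values were at or below that mean. Ddx25 read 2.47 and 2.24 against 2.33, 1.88 and 1.95, and 4 of its values were at or below the mean as well. Ddx43 read 2.09 and 2.18 against 2.07, 2.80 and 2.52, with both controls below it. Low signal was not particular to the germ-cell members. The export helicase Ddx19b and the mitochondrial Ddx28 also had 4 of 5 values at or below that mean. Of all 49 members, 15 touched the floor on at least 1 array and 0 did so on all 5, and differences of those members are inexact. The floor itself was lower on the cyclin D1 arrays, and its part in the small negative differences was not tested.

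The controls were not alike in the helicases of the top signal decile. Control 2 exceeded control 1 in 12 of 13, by a median of 1.05 log2 units over the 13, while the median was 0.66 over all genes of that decile. The median SD of these members was 0.744 in the controls (n = 2) and 0.245 in the cyclin D1 mice (n = 3). Measured against control 2 alone, the cyclin D1 mean was higher by 3.18 in Ddx3x, 2.61 in Ddx1, 2.44 in Ddx5 and 2.35 in Ddx10. It was higher by 0.67 in Dhx9, 0.66 in Ddx18 and 0.69 in Ddx21.

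**Figure D4:**
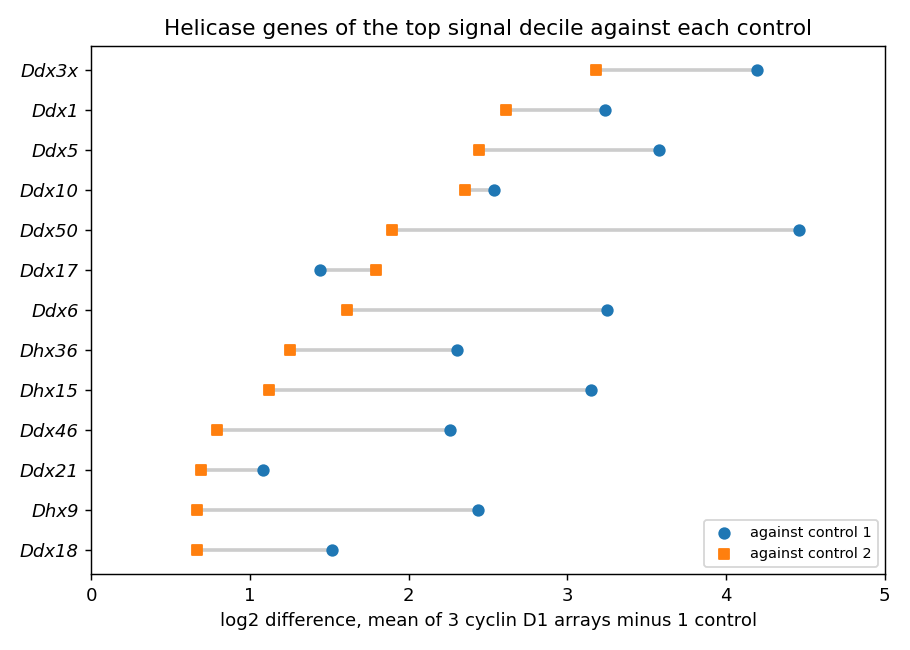
Log2 difference between the mean of the 3 cyclin D1 arrays and each control on its own (x axis; blue circles control 1, orange squares control 2) for the 13 helicase genes of the top signal decile. The values of Ddx10 lie close together at 2.54 and 2.35, those of Ddx50 lie far apart at 4.46 and 1.89, and Ddx17 alone has the larger value against control 2.

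Genes that work with the helicases were taken from 8 lists of RNA factors, 199 measured genes in all. Of these 42 were called higher, 21.1% (5.38% of all genes), and 0 lower (0.687%), with 1 lower at an unadjusted limma p under 0.05. Their median difference was 0.68. Calls went with signal, at 36% of genes in the top signal decile and 1.98% of genes below it. The lists were not matched to other genes by signal. After renormalization 1 was called higher (0.256%) and the median was 0.34. No gene of the array was called higher without control 1, cyclin D1 replicate 1 or cyclin D1 replicate 2, which covers these lists and the markers too. In these lists a gene is said to have risen only where limma called it higher. Among 21 helicases of related families under other symbols 5 rose, 13 had positive differences and the median was 0.12. Eif4a2, a DEAD box factor of translation initiation, rose by 1.87 (log2, with SE 0.18 and a limma adjusted p of 0.0165). Ascc3, a helicase of ribosome quality control, rose by 2.47 (SE 0.34, limma adjusted p = 0.0264), and Dicer1, which cuts microRNA precursors, by 2.26 (SE 0.36, limma adjusted p = 0.0337). After renormalization Eif4a2 differed by 0.53, Ascc3 by 1.68 and Dicer1 by 1.66. Named after its values were seen, Eif4a3, the DEAD box core of the exon junction complex, read 4.11 and 5.84 in the controls against 4.75, 5.05 and 5.07, with a difference of -0.023 that became -1.26 after renormalization (limma adjusted p = 0.178).

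The partner lists showed the following. Differences were positive, called or not, in 35 of 37 core spliceosome, 15 of 20 G-patch and 14 of 17 export genes. They were positive in 36 of 40 ribosome biogenesis, 22 of 23 initiation, 27 of 32 decay and 7 of 10 microRNA genes (44.3% of all genes). After renormalization these counts were 32, 11, 10, 28, 14, 27 and 7 in that order (47.8% of all genes). In the core spliceosome 8 of 37 rose (median 0.85), led by Cdc5l of the Prp19 complex with 1.39 (SE 0.17), the Sm protein gene Snrpd1 with 1.28 and the U1 gene Snrnp70 with 1.29. After renormalization these were 1.07, 0.96 and 0.12. Of 20 G-patch proteins, several of which activate DEAH helicases, 3 rose (median 0.40). These were Rbm6 with 2.32, the telomerase inhibitor gene Pinx1 with 0.86 and the splicing factor gene Rbm5 with 1.70, which became 1.81, 0.21 and 0.091 after renormalization. Of 17 export and exon junction genes 3 rose (median 0.45): Thoc7 of the THO complex with 3.49 (SE 0.19, limma adjusted p = 0.0102), Upf2 of nonsense-mediated decay with 1.98 and Thoc1 with 1.06. Thoc7 was the gene called after renormalization, at 2.38, with Upf2 at 1.69 and Thoc1 at 0.82.

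Of 40 ribosome biogenesis factors 4 rose (median 0.54), and the 3 with the smallest p were Utp3 with 1.41, the pseudouridine synthase gene Dkc1 with 1.12 and Utp15 with 1.09 (0.82, 0.76 and 0.96 after renormalization). Of 23 translation initiation factors 9 rose (median 1.59, and 0.42 after renormalization), among them Eif2s2 with 2.48, Eif5 with 1.75 and Eif2s3x with 2.30. After renormalization Eif2s2 differed by 0.71, Eif5 by -0.091 and Eif2s3x by 0.65. Of 32 decay and P-body genes 9 rose (median 0.93): the Ddx6 partner gene Lsm14a with 2.0 and the deadenylase complex genes Cnot3 with 2.05 and Cnot7 with 2.35 had the smallest p (0.76, 1.52 and 1.31 after renormalization). Of 10 microRNA processing genes 2 rose (median 0.32), Dicer1 and the Argonaute gene Ago3 with 0.77 (0.63 after renormalization), while Ago4 had a difference of -0.46 that did not pass.

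Markers of several cell types moved with the groups on the deposited scale, on which 5.38% of all genes were called higher. The 9 milk and alveolar markers, 7 of them called higher, had a summed level of 11.83 and 12.55 (log2 of the summed signal) in the controls and 13.94 to 14.22 in the cyclin D1 mice. The 6 markers of dividing cells, 3 called higher, had 5.64 and 5.90 against 7.31 to 8.45. Luminal epithelial markers (2 of 7 called) had 6.61 and 6.46 against 7.53 to 8.06, and basal markers (1 of 6 called) 5.92 and 6.51 against 7.26 to 8.23. These sums weigh bright genes most. Differences were positive in 6 of the 7 luminal markers, with Pgr at -0.57. Of the 6 basal markers 4 were positive, led by Acta2 with 2.48 and Myh11 with 1.66, while Oxtr had -0.29 and Krt14 -0.098. None was called among 7 adipocyte markers, which ranged from 9.58 to 9.88 and from 8.70 to 10.75. The same held for 5 endothelial markers (5.45 and 5.76 against 5.71 to 6.49), 6 fibroblast markers (7.03 and 8.79 against 8.35 to 9.30) and 7 leukocyte markers (6.07 and 6.90 against 6.36 to 7.87). The 9 germ-cell markers, Ddx4 among them, had 5.88 and 5.54 against 5.50 to 6.52, with Dazl and Mael at or below the olfactory mean on all 5 arrays. After renormalization, with 0.256% of all genes called higher, 1 marker of dividing cells, Kif11, was called and 0 of the milk, luminal and basal markers. The median difference went from 2.52 to 1.14 in milk markers, from 2.19 to 1.47 in those of dividing cells, from 0.92 to 0.16 in luminal and from 0.45 to 0.37 in basal markers. It went from -0.064 to -1.01 in adipocyte, from 0.38 to -0.30 in fibroblast and from 0.11 to -0.077 in leukocyte markers. In endothelial markers, all 5 of which had positive differences, it went from 0.47 to 0.17. The deposited endothelial median was thus close to that of the basal markers. Outside the germ-cell list no marker lay at or below the olfactory mean on every array. The part of these cell types in the helicase differences was not tested.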

How the data were processed

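The authors deposited log2 expression values per probe set of a whole-transcript array, and the submitters' processing notes name Affymetrix Expression Console 1.1 and RMA. The log2 base was inferred from the deposited values. The table held 35556 probe sets, of which 21789 had 1 gene symbol, 1621 several and 12146 none. The highest-mean probe set per symbol gave 19938 genes. RefSeq identifiers matched all 49 members. Groups were compared with limma 3.58.1 (R 4.3.3, lmFit and eBayes, two-sided, 3 residual and 2.39 prior degrees of freedom), with Benjamini-Hochberg adjustment over all genes. The number of arrays limits the precision, and the procedure was tested on simulated data. Those data had the same spread in both groups, without the narrower range of the control arrays. Members named are the 4 with the highest mean in each role and the 6 with the largest and lowest differences, and in each RNA list the 3 with the smallest p. Exceptions are marked. The members and lists were chosen with earlier results of these data known; the olfactory floor and the promoter motifs were chosen after seeing values.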

Additional observations from a re-analysis of the deposited data

How the results depend on the processing

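All 15 alternatives planned were run. The members called higher numbered 7 with all arrays, 2 after renormalization, 4 with an intensity trend, 4 with array weights and 0 to 12 when 1 array was left out. Members called lower numbered 1 with an intensity trend (Ddx51), 0 to 3 with 1 array left out and 1 (Ddx54) when renormalized without control 1. The median difference over members was 0.87 over the 33 that passed the filter on dim genes and 0.22 when renormalized without control 1, and otherwise stayed within the spread between replicates. Over all genes, 1072 were higher and 137 lower. The numbers were 51 and 21 after renormalization (70.8% higher against 88.7%), 622 higher with an intensity trend, 263 and 4 with array weights, 56 lower after the filter on dim genes, 555 and 894 when renormalized without control 1, and from 0 to 1365 higher and 0 to 1063 lower with 1 array left out. The causes were not tested; the filter on dim genes also tests fewer genes. The replicate numbers are not said to pair the mice. With the number as a replicate block, 7 members were higher (5 shared with the 7 called without it), 0 lower, and 10 genes were lower over all genes. The deposited values came without a detection call, so dim members have no lower limit beyond the rough olfactory floor.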

Other observations

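In 10 of the 49 helicase genes, 20.4%, at least 2 arrays carried an equal value to 4 decimals, and the same was true of 19.9% of all genes. Ddx4 was at 1.77 on 3 arrays of both groups in this way, and Ddx59 at 2.55 on 3 arrays of both groups.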
